A study of Bos taurus with 4 samples.

Results

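Amino acid transporters of the solute carrier (SLC) families were followed in bovine morulae (Bos taurus) that had spent early cleavage in high or control glucose. Members were the genes whose platform symbol begins with SLC1A, SLC3A, SLC7A, SLC36A, SLC38A or SLC43A, together with SLC6A14, SLC6A9 and SLC6A6. This rule took 41 of the 15229 gene symbols on the array, read by 53 of its 43794 transcript probes. The rule itself works by symbol, but members were chosen with earlier results of these data known. Counts of members are therefore descriptive. One of the 41, SLC7A6OS, lies opposite to SLC7A6 and shares only the prefix, since it is not an amino acid transporter.

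Embryos were produced in vitro and grown in synthetic oviductal fluid, in which the high glucose (HG) group had 5 mM glucose and the control (CTL) group 0.2 mM from day 0 to day 3. All embryos were then kept in control medium until day 5 and collected as morulae at 120 h after fertilization. Both groups came from slaughterhouse ovaries, their labels list fatty-acid-free albumin and serum in the culture system, and the breed is given as Holstein for 1 of the 2 channels. Pools of 10 embryos were hybridised pairwise on 4 arrays, 1 of each group per array, and the dyes were swapped: HG carried Cy5 on arrays 1 and 2, and Cy3 on the other two. Whether the pools stem from separate fertilizations is not stated, so that p-values measure only the spread between them, which may be technical. In such pools, fewer cells of a type and less RNA per cell cannot be told apart.

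Cells take up amino acids through families of membrane carriers with overlapping substrates. The light chains of the SLC7 family mostly work as exchangers and reach the membrane bound to a heavy chain of the SLC3 family. Many members of SLC1, SLC36 and SLC38 couple transport to ion gradients. In early embryos amino acids serve as osmolytes, as fuel and as building blocks, and leucine and glutamine taken up by these carriers act on the growth kinase mTORC1.

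Ratios are given on the log2 scale, HG over CTL, so that a negative value means lower signal in HG, and means are given with the SD over 4 arrays (n = 4). The median raw intensity of an array was 153 to 163 in Cy5 and 210 to 287 in Cy3. The background limit of a pool was set 2 SD over the mean log2 intensity of 153 negative control spots, and a probe was tested where it exceeded that limit in all 4 HG pools or all 4 CTL pools. Over all tested probes, ratios of arrays 1 and 3 correlated at -0.46, although the dyes recorded in the labels were used to turn every array the same way. The direction was kept as labelled, and key values are also given with the sign of array 3 turned. Marker genes were read for the cells in the pools: POU5F1, NANOG, KRT8, KRT18 and GATA2 were above background in all 8 pools, while CDX2 and GATA3 were above it in 0 pools. SOX2 was above it in 2 HG and 2 CTL pools, and LIN28A in 3 HG and 3 CTL pools. Of 9 oocyte and embryo markers on the array, 1 was tested, KPNA7, which was seen in all 8 pools. GDF9 was seen in 0. The others lay between, from ZAR1 in 2 HG and 0 CTL pools to ZP4 and H1-8 in 3 HG and 3 CTL pools. Of 23 cumulus and granulosa markers, 16 were tested, and 13 to 16 of these were above background in each pool. High counts follow in part from the criterion, which asks for signal in all 4 pools of a group. Outside the 16, AMH was above background in 0 pools. CYP11A1, FSHR, HSD3B1 and PTGS2 were so in 2 HG and 3 CTL pools, HAS2 in 3 and 2, and FST in 3 and 3. The pools thus held signal of the tested markers, and the cells that gave it were not identified.

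Detection of the transporter probes was near that of the whole array. Of the 53 probes, 15 were above background in all 8 pools and 15 in none, that is 28.3% each, against 30.0% and 29.1% of all transcript probes. A further 12 were above background in 4 to 7 pools and 11 in 1 to 3 pools. The test took 18 probes of 16 symbols, or 34.0%, against 35.9% of all transcript probes. Of these 18, 15 passed in both groups. SLC38A5 and SLC38A7 passed through HG only (3 of 4 CTL pools above background), and SLC43A1 passed through CTL only (3 of 4 HG pools).

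**Figure D1:**
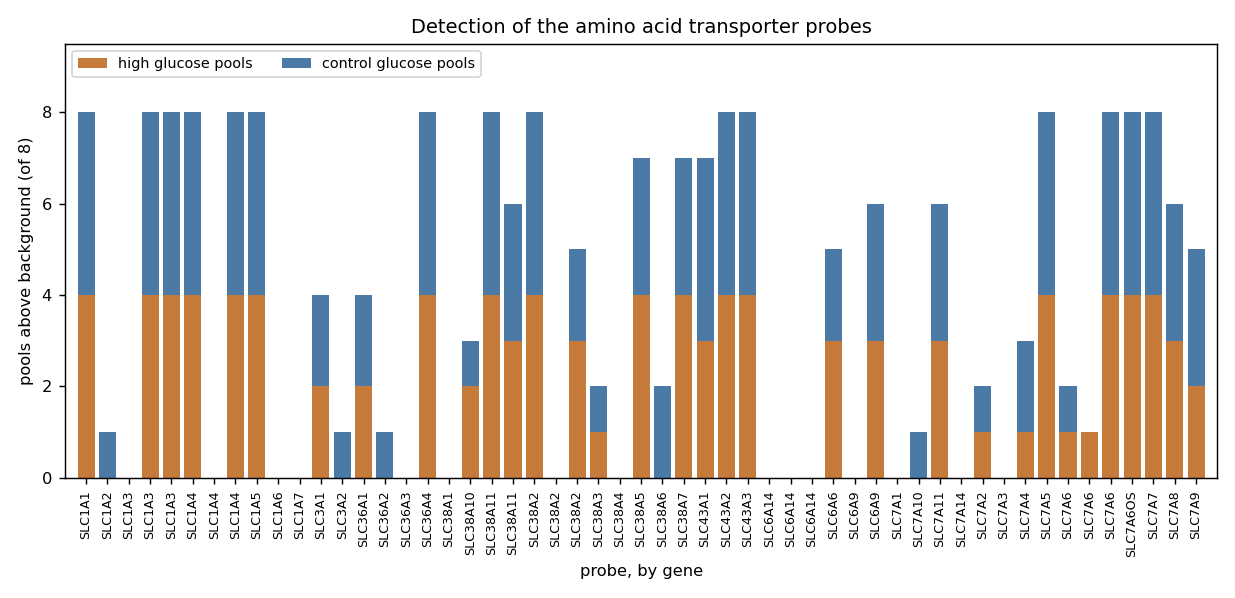
Number of pools in which each of the 53 transporter probes was above background, stacked as HG pools and CTL pools (vertical axis, at most 8), with probes ordered by family and gene. Bars of full height stand for the 15 probes seen in every pool, and gaps for the 15 seen in none.

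Families differed in how much of them could be read. All 3 SLC43 probes were tested, 6 of 11 SLC1 probes, 4 of 12 SLC38 probes, 4 of 15 SLC7 probes and 1 of 4 SLC36 probes. The SLC7 counts include the tested probe of SLC7A6OS, which is not a carrier. None of the 2 SLC3 probes or of the 6 SLC6 probes met the criterion. SLC3A2, the heavy chain that carries SLC7A5, SLC7A6, SLC7A7, SLC7A8 and SLC7A11 to the membrane, had 1 probe, which was above background in 1 of 4 CTL pools and 0 HG pools. Its heavy chain relative SLC3A1 was above background in 2 HG and 2 CTL pools.

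Several other well known carriers were also dim. The 3 probes of SLC6A14, a broad transporter of neutral and cationic amino acids, were above background in 0 pools, and so was the single probe of the cationic transporter SLC7A1. The glycine transporter SLC6A9, whose activity controls cell volume in mouse cleavage embryos, had 1 probe seen in 3 HG and 3 CTL pools and 1 seen in none. The taurine transporter SLC6A6 was seen in 3 HG and 2 CTL pools. SLC7A11, the cystine and glutamate exchanger, and SLC7A8, a light chain for neutral amino acids, were each seen in 3 HG and 3 CTL pools. Not being above background sets a limit on these probes and does not show that the transcript was missing from the embryos.

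The 35 probes that were not tested had mean log2 ratios between -0.36 and 0.26, 15 below and 20 above 0. They are given as values without a call. The lowest mean belonged to SLC38A3, a glutamine transporter, whose ratios on arrays 1 to 4 were -1.70, -0.48, 0.49 and 0.26.

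Among the tested probes, no transporter passed the adjusted threshold of 0.05 in limma with Benjamini-Hochberg adjustment. This held for 0 of 18 member probes and 0 of 15740 probes in all (0%), and the smallest adjusted p was 0.715 in both. By unadjusted p, 3 members lay under 0.05, all lower in HG, where 3.61% of all tested probes lay under it as lower and 3.19% as higher. The 3 were SLC7A7, SLC7A5 and SLC1A5, the last at the limit (limma, unadjusted p = 0.04995). The count of members under 0.05 was 1 without array 2, 1 without array 3 and 0 with the sign of array 3 turned. It was 2 without array 4, with a dye term, with 1 probe per gene or with both channels above background on all arrays. It was 4 without array 1 or with the sign of array 1 turned. SLC7A7, SLC7A5 and SLC1A5 were also the members with negative values on all 4 arrays, 16.7% of the 18 probes against 8.11% of all tested probes. SLC7A6 was the 1 member with positive values on all 4 arrays, against 7.51% of all tested probes.

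Mean values lay below 0 for 13 of 18 member probes, that of SLC7A6OS among them, where 52.4% of all tested probes lay below 0. The median of the members was -0.14 and that of all tested probes -0.02. On single arrays the median of the members was -0.12, -0.07, -0.11 and -0.05 on arrays 1 to 4, with 10, 11, 9 and 10 of the 18 probes below 0. A mean of at least 1.5-fold lower signal in HG was seen for 2 members, SLC7A7 and SLC7A5, against 4.34% of all tested probes. At least 1.5-fold higher signal was seen for 0 members, against 3.98%. The SD over arrays had a median of 0.58 for the members and 0.49 for all tested probes.

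**Figure D2:**
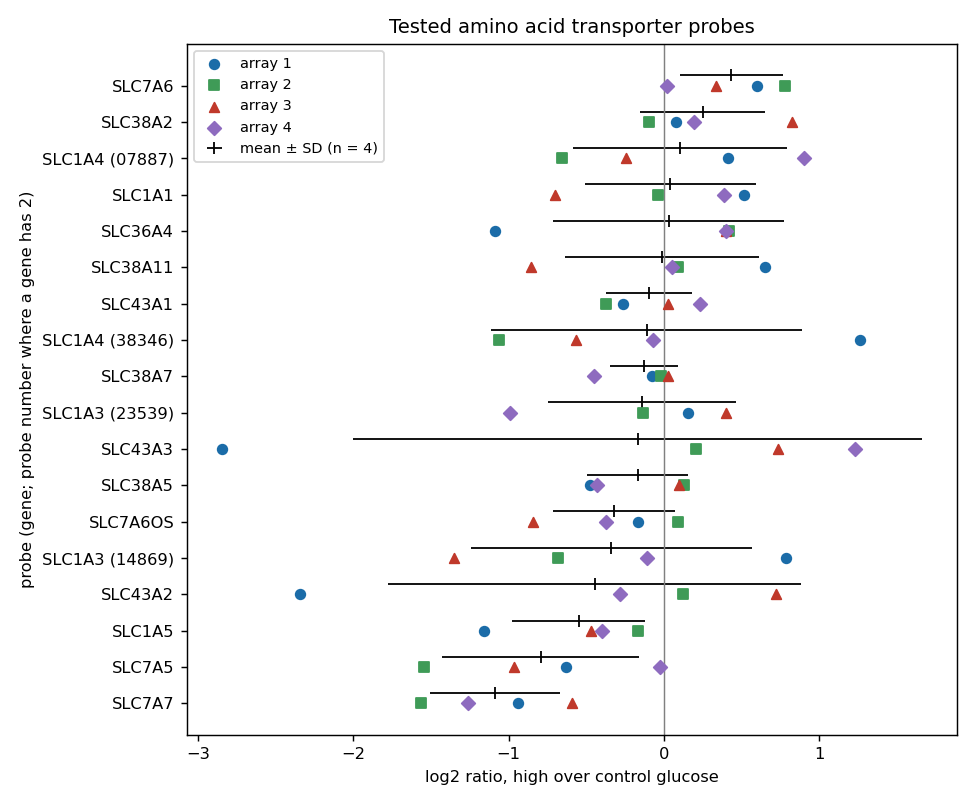
Log2 ratio of HG over CTL (horizontal axis) on each of the 4 arrays for the 18 tested transporter probes, with the mean and SD (n = 4) as a bar above the points. SLC7A7, SLC7A5 and SLC1A5 have all 4 points below 0, SLC7A6 has all 4 above 0, and the points of SLC43A3 and SLC43A2 spread widest.

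The light chains of SLC7 held the members farthest from 0 in both directions. SLC7A7 encodes the light chain that exports cationic amino acids such as arginine and lysine in exchange for neutral ones. Its ratios were -0.94, -1.57, -0.59 and -1.26 on arrays 1 to 4. All 4 HG pools were lower than the CTL pool of the same array. The mean was -1.09 ± 0.42, or 2.13-fold lower signal in HG, with a 95% interval of -1.63 to -0.55 on the log2 scale, and the probe did not pass the test (limma, adjusted p = 0.715).

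On the scale of normalised signals, SLC7A7 was at 7.74, 8.22, 9.10 and 8.34 in the HG pools of arrays 1 to 4 and at 8.68, 9.79, 9.69 and 9.60 in the CTL pools. The groups overlapped across arrays, because the HG pool of array 3 lay above the CTL pool of array 1. With the sign of array 3 turned the mean ratio was -0.79, and on arrays 2 and 4 alone it was -1.41 (limma, adjusted p = 0.0534). Over all alternatives tried the adjusted p of SLC7A7 ranged from 0.0534 to 0.999 (limma).

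SLC7A5 encodes the light chain for large neutral amino acids such as leucine. Its ratios were -0.63, -1.55, -0.97 and -0.03 on arrays 1 to 4. The HG pool was clearly lower on the first 3 arrays, while on array 4 both pools were nearly level. The mean was -0.79 ± 0.64, or 1.73-fold lower signal in HG, with a 95% interval of -1.47 to -0.12 (limma, adjusted p = 0.715), and with the sign of array 3 turned it was -0.31.

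The signals of SLC7A5 were 13.17, 12.99, 12.50 and 13.58 in HG and 13.80, 14.54, 13.47 and 13.61 in CTL on arrays 1 to 4, so the groups overlapped. Markers of the trophectoderm, the outer cell layer of the embryo, were read beside these values. The median ratio of 8 measured markers was -0.09, -1.56, -1.60 and -0.08 on arrays 1 to 4, so that it was low on arrays 2 and 3. Single markers spread widely around it. They ran from -1.68 for KRT8 to 0.73 for TFAP2C on array 1 and from -2.78 for KRT8 to 0.32 for TFAP2C on array 2. On array 3 they ran from -2.20 for PLAC8 to 0.51 for ELF3, and on array 4 from -1.11 for KRT18 to 1.46 for TFAP2A. KRT8, GATA2 and PLAC8, 3 of the 8, were below 0 on all 4 arrays, against 8.87% of all tested genes. The summed signal of these markers ranged from 26952 to 65530 in HG pools and from 64250 to 100755 in CTL pools. All 8 were above background in every pool, and 3 of the list's 11 genes, CDX2, GATA3 and TEAD4, did not meet the criterion. The part of these markers in the values of SLC7A5 was not tested.

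SLC7A6, the light chain most like SLC7A7 in its substrates, pointed the other way. The ratios of its bright probe were 0.60, 0.78, 0.34 and 0.02 on arrays 1 to 4. The HG pool was higher on 3 arrays and level on the fourth. The mean was 0.43 ± 0.33 with a 95% interval of -0.07 to 0.93 (limma, adjusted p = 0.739), and with the sign of array 3 turned it was 0.26.

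Signals of SLC7A6 were 12.07, 12.10, 11.92 and 11.88 in HG and 11.48, 11.32, 11.58 and 11.87 in CTL on arrays 1 to 4. It was the 1 member whose 4 HG signals all lay above its 4 CTL signals, as 2.31% of all tested probes did, but its nearest pools, both on array 4, were almost equal. In 0 members did all HG signals lie below all CTL signals, against 2.29% of all tested probes. The other 2 probes of SLC7A6 were above background in 1 or 2 of 8 pools and had mean ratios of 0.16 and 0.26. SLC7A6OS, on the opposite strand, had ratios of -0.17, 0.09, -0.84 and -0.38, with a mean of -0.32 ± 0.39.

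**Figure D3:**
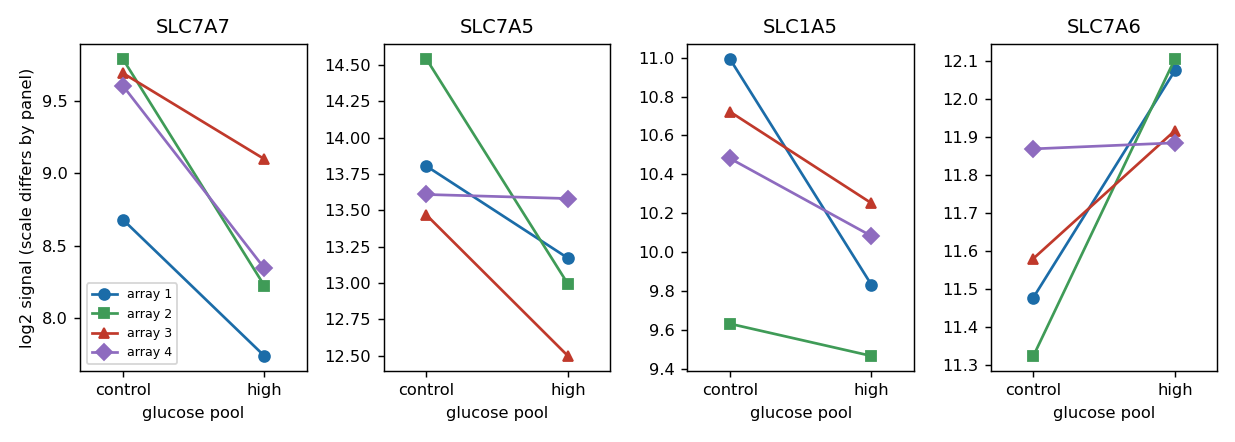
Normalised log2 signal (vertical axis, its own scale in each panel) of SLC7A7, SLC7A5, SLC1A5 and SLC7A6 in the CTL and HG pool of each array, joined by a line per array. The lines of the first 3 genes slope down towards HG on every array, that of SLC7A5 on array 4 only from 13.61 to 13.58. Those of SLC7A6 slope up, on array 4 only from 11.87 to 11.88.

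The sodium-coupled SLC1 family holds glutamate carriers and 2 carriers of small neutral amino acids. SLC1A5, through which cells take up glutamine, had ratios of -1.16, -0.17, -0.47 and -0.40 on arrays 1 to 4. Every HG pool was lower, with most of the distance on array 1. The mean was -0.55 ± 0.43, or 1.46-fold lower signal in HG, with a 95% interval of -1.10 to -0.00015 (limma, adjusted p = 0.731). Without array 1 the mean was -0.34, with the sign of array 3 turned -0.31 and with the sign of array 1 turned 0.032.

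Signals of SLC1A5 were 9.83, 9.47, 10.25 and 10.08 in HG and 10.99, 9.63, 10.72 and 10.48 in CTL on arrays 1 to 4. The groups overlapped, since the CTL pool of array 2 lay below 3 of the HG pools. The glutamate carriers gave no common direction. SLC1A1 had ratios of 0.52, -0.04, -0.70 and 0.39 with a mean of 0.04 ± 0.55. SLC1A3 had ratios of 0.78, -0.68, -1.35 and -0.11 by its brighter probe, with a mean of -0.34 ± 0.91, which was -0.71 without array 1 and -0.0026 without array 3. Its other tested probe had ratios of 0.15, -0.13, 0.40 and -0.99 with a mean of -0.14 ± 0.60. These probes had the same sign on arrays 1, 2 and 4 and opposite signs on array 3.

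SLC1A4, which exchanges alanine, serine and cysteine, showed that probes of 1 gene can differ. Its brighter probe had ratios of 1.26, -1.07, -0.57 and -0.07 on arrays 1 to 4, with a mean of -0.11 ± 1.00. The other tested probe had ratios of 0.41, -0.65, -0.24 and 0.90, with a mean of 0.10 ± 0.69. Both were positive on array 1 and negative on arrays 2 and 3, and they parted on array 4. None of the SLC1A1, SLC1A3 and SLC1A4 probes lay under 0.05 by unadjusted p (limma).

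Of the 18 tested probes, those of SLC43A3 and SLC43A2 varied most between arrays, while the third SLC43 member did not. SLC43A3, which in human cells carries purine bases, had ratios of -2.85, 0.20, 0.74 and 1.23 on arrays 1 to 4 and a mean of -0.17 ± 1.83. The value of array 1 stood far below the rest, and without that array the mean was 0.72. SLC43A2, a carrier of branched-chain amino acids and phenylalanine, had ratios of -2.34, 0.12, 0.72 and -0.28 and a mean of -0.45 ± 1.33, which was 0.19 without array 1. SLC43A1, its close relative, had values of -0.26, -0.38, 0.03 and 0.23 near background and a mean of -0.09 ± 0.28.

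Cumulus and granulosa markers, genes of the somatic cells that surround the oocyte, were read beside the low values on array 1. The list also holds matrix and stromal genes such as LUM, COL1A2 and VIM. The median ratio of its 16 measured markers was -2.06, 0.05, 2.12 and -0.58 on arrays 1 to 4. Their summed signal was 26204 in the HG pool and 93021 in the CTL pool of array 1, against 205246 and 62131 on array 3. It was 37462 in HG and 44891 in CTL on array 2, and 51219 in HG and 95737 in CTL on array 4. Of these 16 markers, 14 to 16 were above background in each HG pool and 13 to 16 in each CTL pool. Single markers on array 1 ran from -5.15 for LUM to 0.60 for TNFAIP6. CYP19A1 did not follow the median, at -0.83, -0.49, -0.42 and -0.24 on arrays 1 to 4. It was above background in 1 of 4 HG pools and 4 of 4 CTL pools, so its HG values lay near background. FN1, above background in all 4 HG and all 4 CTL pools, was at -0.66, -0.46, -0.63 and -1.15. Of the list's 23 genes, AMH, CYP11A1, FSHR, FST, HAS2, HSD3B1 and PTGS2 did not meet the criterion, and AMH was above background in 0 pools. On array 2 the marker median lay near 0, with single markers from -0.97 for COL3A1 to 1.66 for LUM. A shared or opposite sign on that array therefore means little. SLC43A2 had the sign of this median on all 4 arrays and SLC43A3 on arrays 1, 2 and 3 but not on array 4, where it was at 1.23. The brighter probe of SLC1A3 and both tested probes of SLC1A4 had the opposite sign on arrays 1, 2 and 3. The other tested probe of SLC1A3 had the opposite sign on arrays 1 and 2 and the same sign on array 3. The share of all tested probes with such signs is not given. The part of cumulus or granulosa cells in the transporter values was not tested.

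Opposite signs on arrays 1 and 3 were seen for 11 of 18 member probes, or 61.1%, against 63.2% of all tested probes. A value below -1 on array 1 together with one above 1 on array 3 was seen for 0 member probes, against 4.00% of all tested probes. SLC7A7, SLC7A5, SLC1A5 and SLC7A6 had the same sign on both arrays.

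**Figure D4:**
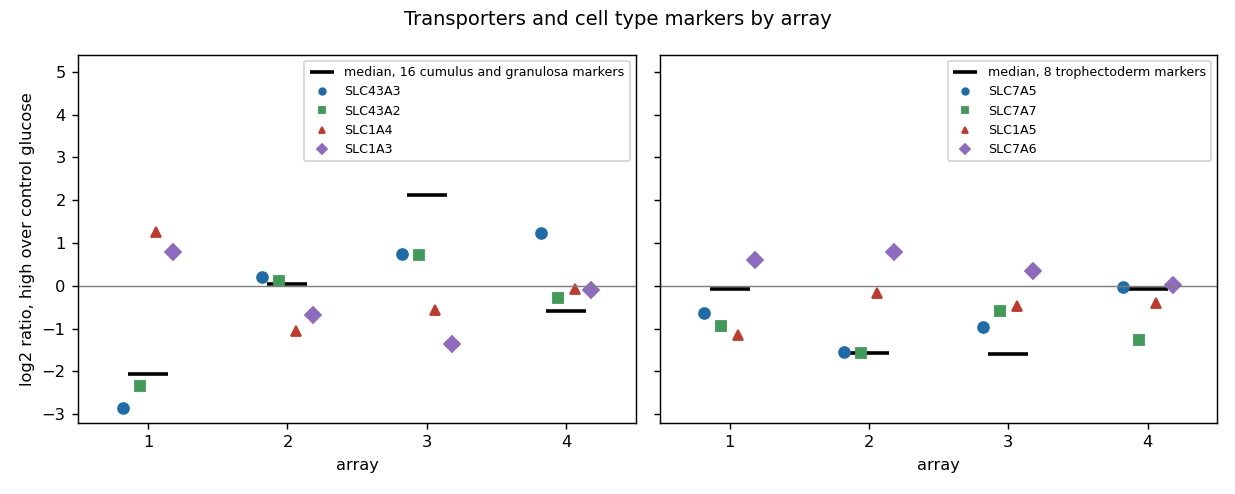
Log2 ratio of HG over CTL (vertical axis) by array for transporters and for the median of a marker list (black bars), with the brightest probe of each gene. Left: on array 1 the cumulus and granulosa median is -2.06, with SLC43A3 at -2.85 and SLC43A2 at -2.34, and SLC1A4 and SLC1A3 lie above 0. On array 3 that median is 2.12, with SLC43A3 at 0.74 and SLC43A2 at 0.72. On array 4 it is -0.58, with SLC43A3 at 1.23. Right: the trophectoderm median is -0.09, -1.56, -1.60 and -0.08 on arrays 1 to 4. SLC7A5 is at -0.63, -1.55, -0.97 and -0.03 on the same arrays.

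SLC36 and SLC38 carriers lay nearer 0. SLC36A4, a carrier of proline and tryptophan, had ratios of -1.09, 0.41, 0.40 and 0.40 and a mean of 0.03 ± 0.74, with array 1 apart from the other arrays. SLC38A2, a sodium-coupled carrier of small neutral amino acids whose transcript rises in amino acid shortage in many cells, had ratios of 0.08, -0.10, 0.82 and 0.19. It was higher mainly on array 3, and its mean was 0.25 ± 0.40, while with the sign of array 3 turned it was -0.16. SLC38A11 had ratios of 0.65, 0.09, -0.86 and 0.05 and a mean of -0.02 ± 0.62. SLC38A7, a lysosomal glutamine carrier, had ratios of -0.07, -0.02, 0.03 and -0.45 and a mean of -0.13 ± 0.22. SLC38A5, a carrier of glutamine and related amino acids, had ratios of -0.48, 0.13, 0.09 and -0.43 and a mean of -0.17 ± 0.33. Each of the last 2 was above background in 3 of 4 CTL pools.

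Neighbouring parts of amino acid metabolism were read from lists of genes, each gene by its brightest tested probe, in a fit over 7377 genes. In the lists of this paragraph and the next, 0 genes passed the adjusted threshold (limma, smallest adjusted p = 0.810). Mean values were below 0 for 56.1% of the 7377 genes. Values were below 0 on all 4 arrays for 8.87% of genes and above 0 on all 4 for 5.8%. Among 12 tested genes of other amino acid and peptide carriers, 3 had means below and 9 above 0, 0 had 1 sign on all 4 arrays, and the median was 0.12 against -0.04 for all genes. The mitochondrial aspartate and glutamate carrier SLC25A12 ranked first of them by p, with ratios of -0.52, 1.70, 2.38 and 0.02.

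The amino acid response, in which the transcription factor ATF4 raises transporters and synthesis enzymes, had 9 of 17 tested genes below 0 and a median of -0.01. ATF4 itself had ratios of 0.11, -0.63, -0.23 and -1.15, and PSPH, which makes serine, was at -0.04, -1.22, -0.66 and -0.44. CTH, which makes cysteine, was at 0.05, -0.29, -0.79 and -0.60, and TRIB3, a target of ATF4 that restrains it, was at 1.17, 0.80, 0.03 and -0.24. Genes of amino acid sensing by mTORC1 had 12 of 22 tested members below 0, 2 of them on all 4 arrays, and a median of -0.08. LAMTOR3, a subunit of the lysosomal scaffold for that kinase, was at -1.15, -0.85, -1.08 and -1.28. Cytosolic aminoacyl-tRNA synthetases, which load amino acids onto tRNA, had 10 of 14 below 0, 3 of them on all 4 arrays, and a median of -0.14. TARS1, first of them by p, was at 0.02, -1.35, -0.84 and -1.07, and the asparagine enzyme NARS1 at -0.88, -0.27, -0.21 and -0.54. Enzymes that use the carried amino acids had 13 of 21 below 0 and 8 above, 0 below on all 4 arrays and 3 above on all 4, with a median of -0.08. The serine dehydratase SDS was at 0.57, 1.64, 1.61 and 1.43, and the mitochondrial aspartate aminotransferase GOT2 at 1.03, 0.76, 0.07 and 0.97. BCAT1, which transaminates branched-chain amino acids, was at -0.82, -1.03 and -0.84 on arrays 1, 3 and 4 and had no value on array 2, so it is not in the count of genes below 0 on all 4 arrays. Of 5 tested genes of ubiquitin control of transporters, 2 were below 0 and 3 above. RNF5, first of them by p, was at -0.82, -0.79, 0.06 and -0.58. The ligase NEDD4 was above 0 on all 4 arrays (0.41, 0.32, 0.61 and 0.37), with 2 of 4 CTL pools above background.

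**Figure D5:**
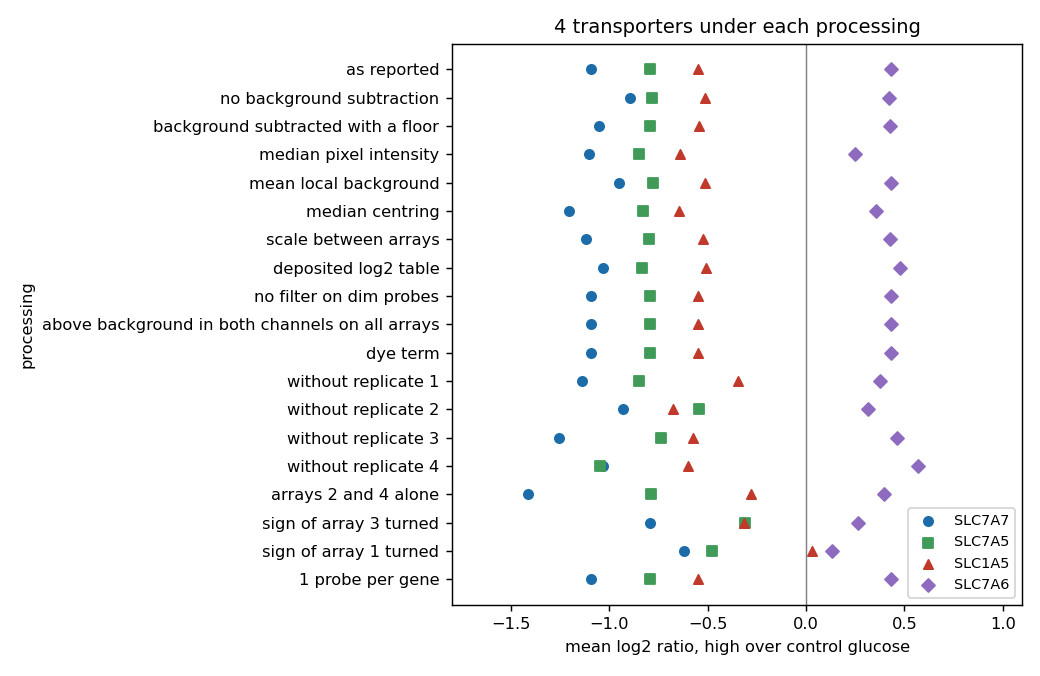
Mean log2 ratio of HG over CTL (horizontal axis) for SLC7A7, SLC7A5, SLC1A5 and SLC7A6 under the processing used and each alternative (vertical axis). SLC7A7 and SLC7A5 stay below 0 and SLC7A6 above 0 throughout, while SLC1A5 reaches 0.032 with the sign of array 1 turned.

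Under 18 alternative treatments of the data the mean of SLC7A7 ranged from -1.41 to -0.62, that of SLC7A5 from -1.05 to -0.31 and that of SLC7A6 from 0.13 to 0.57. SLC1A5 ranged from -0.68 to 0.032. In the authors' deposited table of log2 ratios, turned in the same way, SLC7A7 had a mean of -1.03, SLC7A5 of -0.83, SLC7A6 of 0.48 and SLC1A5 of -0.51. No alternative took a member past the adjusted threshold (limma).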

How the data were processed

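The deposited scanner files hold raw spot and local background intensity in Cy3 and Cy5, per the file headers. The authors also deposited log2 ratios of Cy5 over Cy3, made with limma per the submitters' processing notes, with correction and normalization not given in the sources used here. They correlated with the ratios computed here at 0.976 to 0.993 and were used as an alternative. Spot means with median local background were corrected by normexp (offset 50) and normalized by loess in limma 3.58.1 under R 4.3.3, control spots having weight 0. Ignored spots (29 to 151 an array) were set to missing. Signals per pool were also scaled by Aquantile. Each ratio was signed as HG over CTL and tested against 0 with lmFit and eBayes over 15740 probes, or 7377 genes for lists. The precision is limited by the number of arrays, 4.

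All 41 symbols came from the platform annotation and are current in RefSeq's ARS-UCD2.0 gene table; coordinates are not given because no build is named for the probes. Members, lists and alternatives were chosen with earlier results of these data known. Named members were those with 1 sign on all arrays, those on a list of known carriers, and those whose arrays lay over 2 log2 units apart; probes tested besides these, and carriers not tested, were named after their values were seen. Lists named at most 4 genes by smallest p, of which the text gives some. Alternatives covered background, pixel summary, normalization, filters, a dye term, left-out arrays and turned signs.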

Additional observations from a re-analysis of the deposited data

Results flagged for a closer look

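Of 18 tested transporter probes, 1 had an array far from the other 3, near the rate of about 1 in 20 that chance gives. The share over all tested probes is not given, so the count says nothing particular to the members. The probe was that of SLC36A4, at -1.09 on array 1 against 0.40 to 0.41 on the other arrays. On that array the cumulus and granulosa markers had a median of -2.06, and their part in this value was not tested.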

How the results depend on the processing

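The reported test is itself paired, since each ratio sets 1 HG pool against the CTL pool of the same array. Beyond this, no paired analysis was possible because the pools share no other block. For all probes, 0 passed the adjusted threshold in limma (1071 under 0.05 unadjusted), and 55 passed on arrays 2 and 4 alone, none of them members. The 1071 became 489 without array 2, 514 without array 4, 1895 on arrays 2 and 4 alone, 1686 with the sign of array 3 turned, 2130 of 43794 with no filter and 444 of 7377 with 1 probe per gene. For members the 3 became 1 without array 2 or array 3, 0 with the sign of array 3 turned and 5 of 53 with no filter. Member probes lower on every array used numbered 3, but 5 of 53 with no filter on dim probes, 7 on arrays 2 and 4 alone, 1 with the sign of array 3 turned, and 3 to 5 when 1 array was left out, the 5 without array 1. Member probes higher on every array numbered 1, but 0 with no background subtraction, median pixels, mean local background (chosen after seeing the data), median centring or the deposited ratios, 4 on arrays 2 and 4 alone, 2 with the sign of array 1 turned, and 1 to 3 when 1 array was left out. The members' median of -0.14 moved to -0.076 with median pixels, -0.18 with median centring (where that of all probes was -0.085), -0.010 with no filter and -0.10 with the sign of array 1 turned.

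Named members changed sign as follows. With the sign of array 3 turned, SLC1A3 was at 0.34, SLC1A4 at 0.17, SLC36A4 at -0.17 and SLC38A2 at -0.16. With the sign of array 1 turned, SLC1A1 was at -0.22, SLC1A5 at 0.032, SLC43A1 at 0.036, SLC43A2 at 0.73 and SLC43A3 at 1.25. With median centring SLC1A1 was at -0.030 and SLC36A4 at -0.066, and on arrays 2 and 4 alone SLC43A3 was at 0.71. When 1 array was left out, SLC1A1 ranged from -0.12 to 0.29, SLC1A3 from -0.71 to -0.0026, SLC1A4 from -0.57 to 0.21, SLC36A4 from -0.10 to 0.40, SLC38A2 from 0.056 to 0.36, SLC43A1 from -0.20 to -0.0011, SLC43A2 from -0.83 to 0.19 and SLC43A3 from -0.64 to 0.72. The causes were not tested.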
